A study of Homo sapiens with 6 samples.

Results

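Polyamine synthesis and catabolism were examined through 10 genes in Hep3B, a human hepatocellular carcinoma line, after knockdown of DAGLA, the lipase that releases the endocannabinoid 2-arachidonoylglycerol. The genes were ODC1, AMD1, SRM, SMS, SMOX, SAT1, PAOX, OAZ1, OAZ2 and AZIN1, found as the rows of the FPKM table whose Ensembl identifiers carry these symbols in GENCODE release 29. They were 10 of 29908 genes in the table, and all 10 were among the 14221 genes tested, those that averaged 0.5 FPKM or more. FPKM is the number of reads on a gene scaled to its exon length and to the reads of the library. The length that fitted the values was that of all annotated exons together, which can exceed that of the transcripts a cell makes. Levels set side by side between genes are therefore approximate. The set was drawn up because SMOX had the largest fall among the genes the study itself picked from this comparison. The values of SMOX are therefore given without a test, and the tests of the other 9 genes were read with results of the same comparison already known.

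RNA was sequenced from 3 Hep3B-Con and 3 Hep3B-KD libraries, each described as a biological replicate. Hep3B-KD cells carried a lentiviral hairpin against DAGLA (shDAGLA), and Hep3B-Con cells a control virus, titled shControl in the sample titles and an empty vector in the design text. Both groups were infected at a multiplicity of infection of 5 and selected with puromycin for clones that kept the construct, and how many clones made up each group is not given in the sources used here. The medium is named as DMEM in the sample records and as MEM-alpha in the study's methods. The libraries held 15861039 to 17572714 reads on genes. DAGLA was at 9.42, 9.40 and 9.02 FPKM in Hep3B-Con and 4.62, 4.46 and 4.78 FPKM in Hep3B-KD, a log2 fold change of -0.99 ± 0.0441 (SE, n = 3 per group, limma adjusted p = 5.25e-06). All 7 hepatocyte and hepatoblast markers were detected and rose in Hep3B-KD at an adjusted p under 0.05, as did 36.1% of all genes tested. Their summed level was 2508 to 2556 FPKM in Hep3B-Con and 4043 to 4062 FPKM in Hep3B-KD. SERPINA1 rose the least of the 7, by 0.13 on the log2 scale, beside a median of 0.11 over all genes tested. The 2 of 4 leukocyte markers in the table and the 3 endothelial markers did not sum above 0.130 and 0.385 FPKM in any library, and the 3 stellate cell and fibroblast markers summed to 3.31 to 3.60 FPKM in Hep3B-Con and 2.33 to 2.43 FPKM in Hep3B-KD. The part of this shift in markers in the results on polyamine genes was not tested.

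Polyamines are small positively charged molecules that bind nucleic acids and are needed for growth, and dividing cells, tumour cells included, hold much of them. ODC1 makes putrescine from ornithine, and SRM and SMS extend it to spermidine and spermine with aminopropyl groups that AMD1 prepares from S-adenosylmethionine. Spermine is turned back to spermidine by SMOX directly, or by SAT1 acetylation followed by PAOX oxidation, while antizymes send ODC1 to the proteasome and the antizyme inhibitor AZIN1 binds the antizymes in its place. Much of this control acts on translation and protein stability, which RNA levels do not show.

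The hairpin is shown because 7 bases of its target recur in the 3′ UTR of SMOX. The same 7 bases were in 14.5% of tested genes with a 3′ UTR of at least 50 bases. The hairpin's target, as listed among the study's reagents, lies on the plus strand at chr11:61740504-61740522 (GRCh38), wholly within a coding exon of DAGLA. DAGLA was the only gene of GENCODE release 29 with a transcript that held all 19 bases. The guide strand was taken as the reverse complement of the target, and where the cell cuts the hairpin is not given in the sources used here. Capitals mark the seed, bases 2 to 8 of the guide, and the 7 bases of the target that pair with it.
shDAGLA target: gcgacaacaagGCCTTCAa
shDAGLA guide strand: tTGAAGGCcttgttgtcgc

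The same 7 bases occurred 2 times in the 3′ UTR of SMOX, which is 340 bases long in its longest form, and in all 7 annotated SMOX transcripts with such a UTR of at least 50 bases. The sites lie at chr20:4187539-4187545 and chr20:4187672-4187678 on the plus strand (GRCh38), from bases 132 and 265 of the UTR. Both are shown with their flanks, read from the GENCODE release 29 transcripts, with the bases that pair with the seed in capitals.
SMOX first site: gccgccctgactGCCTTCAgacctggccct
SMOX second site: gttattgtaagtGCCTTCAatactttgcat
The second site also pairs with base 1 of the guide. The longest 3′ UTRs of the other 9 genes, from 276 bases in SRM to 2210 bases in AZIN1, held 0 matches.

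SMOX, the spermine oxidase that turns spermine into spermidine with release of hydrogen peroxide, stood at 37.0, 37.2 and 39.8 FPKM in Hep3B-Con and at 5.14, 5.58 and 5.11 FPKM in Hep3B-KD. All 3 Hep3B-KD libraries lay far below all 3 Hep3B-Con libraries, and the spread within each group was small beside the gap. The means were 38.0 ± 1.56 FPKM and 5.28 ± 0.263 FPKM (SD, n = 3 each), or 7.21-fold lower in Hep3B-KD, a log2 fold change of -2.83 ± 0.0482 (SE). It rested on 1907 to 1954 reads per Hep3B-Con library and 240 to 264 per Hep3B-KD library, on an exon length of 2946 bases shared with no other annotated gene (ENSG00000088826, chr20:4120980-4187747, plus strand). Of the 14221 genes tested, 13 (0.0914%) had a lower log2 fold change. These values chose the set and are a description.

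**Figure D1:**
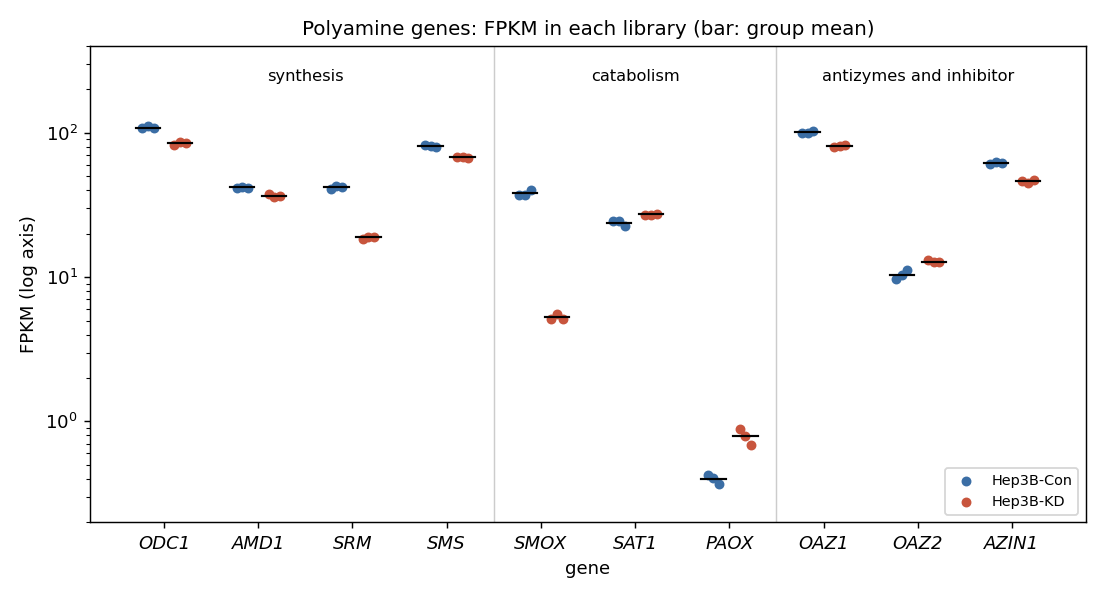
FPKM on a log axis for the 10 polyamine genes in each Hep3B-Con (blue) and Hep3B-KD (red) library, with a bar at each group mean (n = 3). SMOX goes from 37.0 to 39.8 FPKM down to 5.11 to 5.58 FPKM, SRM from over 40 to under 20, and the groups of the other genes lie closer together without overlapping.

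The 4 enzymes of synthesis all fell, SRM by the most. SRM, spermidine synthase, which adds the first aminopropyl group to putrescine, was at 41.0, 42.8 and 41.8 FPKM in Hep3B-Con and 18.5, 19.1 and 19.0 FPKM in Hep3B-KD. Every Hep3B-KD library was below the level of every Hep3B-Con library by more than 20 FPKM. The change was -1.15 ± 0.0269 on the log2 scale (SE, limma adjusted p = 4.49e-07), on 556 to 1412 reads, and 2.76% of all genes tested had a lower one. ODC1, ornithine decarboxylase, the regulated entry to the pathway, was at 107, 112 and 107 FPKM in Hep3B-Con and 81.8, 86.8 and 84.6 FPKM in Hep3B-KD. The groups did not overlap, and the fall was 1.29-fold, from 109 ± 2.50 to 84.4 ± 2.50 FPKM (SD), a log2 fold change of -0.37 ± 0.0283 (SE, adjusted p = 5.24e-05).

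SMS and AMD1 moved by less. SMS, spermine synthase, was at 82.5, 80.9 and 79.5 FPKM in Hep3B-Con and 68.4, 68.4 and 67.4 FPKM in Hep3B-KD, a log2 fold change of -0.25 ± 0.0201 (SE, adjusted p = 6.21e-05). AMD1, which decarboxylates S-adenosylmethionine into the aminopropyl donor, was at 41.5, 42.3 and 41.6 FPKM in Hep3B-Con and 37.8, 36.0 and 36.3 FPKM in Hep3B-KD. Neither gene's groups overlapped, and the AMD1 groups lay nearer to each other than those of the other 3 enzymes. The AMD1 log2 fold change was -0.19 ± 0.0256 (SE, adjusted p = 0.000768), and with quantile normalization it was -0.07 and no longer passed (adjusted p = 0.06). Summed over the 4 enzymes, the level was 270.3 to 277.6 FPKM in the Hep3B-Con libraries and 206.4 to 210.2 FPKM in the Hep3B-KD libraries. In bulk RNA, fewer cells that express a gene and less of its RNA per cell cannot be told apart.

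Of the genes of catabolism other than SMOX, both rose. SAT1, the acetyltransferase that starts the back-conversion and the export of polyamines, was at 24.4, 24.6 and 22.7 FPKM in Hep3B-Con and 27.1, 27.0 and 27.4 FPKM in Hep3B-KD. The groups did not overlap, but the gap between their nearest libraries was little wider than the range within Hep3B-Con. The log2 fold change was 0.19 ± 0.0355 (SE, adjusted p = 0.00372). Over all genes tested the median was 0.11 on the same log2 scale, and SAT1 stood 0.08 above it. Centred on that median, SAT1 no longer passed (adjusted p = 0.0861).

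PAOX, the peroxisomal oxidase of acetylated polyamines, was the scarcest of the 10 genes. It was at 0.425, 0.404 and 0.369 FPKM in Hep3B-Con and 0.886, 0.793 and 0.688 FPKM in Hep3B-KD, on 14 to 17 and 26 to 32 reads per library. Each Hep3B-KD library was above each Hep3B-Con library, on few reads, so that counting error is large. The log2 fold change was 0.83 ± 0.213 (SE, adjusted p = 0.0139) on the scale of log2(FPKM + 0.1), which understates the change of a gene this low. Its Hep3B-Con mean of 0.400 FPKM was under the 0.5 FPKM filter, which PAOX passed only through its higher Hep3B-KD values. Its p is therefore not taken as support for a rise. The call rested in part on Hep3B-KD replicate 1, without which the log2 fold change was 0.75 (adjusted p = 0.0552), and with quantile normalization it was 0.50 (adjusted p = 0.0819). Of its exon bases, 6.94% are shared with AL360181.3 on the same strand, whose reads could not be separated there.

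The antizymes went in opposite directions. OAZ1, the abundant antizyme, was at 99.6, 100.2 and 103.2 FPKM in Hep3B-Con and 79.6, 80.9 and 82.9 FPKM in Hep3B-KD, a log2 fold change of -0.32 ± 0.0236 (SE, adjusted p = 4.43e-05). OAZ2, its less abundant paralogue, was at 9.71, 10.4 and 11.1 FPKM in Hep3B-Con and 13.1, 12.7 and 12.6 FPKM in Hep3B-KD, a log2 fold change of 0.30 ± 0.0528 (SE, adjusted p = 0.00268). In neither gene did the groups overlap, and the OAZ2 libraries of Hep3B-Con were more spread than those of Hep3B-KD. AZIN1, a relative of ODC1 without its catalytic activity, was at 60.5, 62.9 and 62.2 FPKM in Hep3B-Con and 46.4, 45.2 and 47.1 FPKM in Hep3B-KD. The change was -0.42 ± 0.0253 on the log2 scale (SE, adjusted p = 1.77e-05), so that ODC1, OAZ1 and AZIN1 all fell and OAZ2 rose. Exon bases shared with other annotated genes were 6.87% in OAZ1 (JSRP1 and AC005258.1), 7.22% in OAZ2 (AC100830.3) and 5.35% in AZIN1 (AZIN1-AS1), while ODC1, AMD1, SRM, SMS and SAT1 shared none.

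Counted over the 9 genes other than SMOX, 6 were lower in Hep3B-KD and 3 higher at an adjusted p under 0.05. PAOX, counted among the 3 higher, passed the filter on low values only through its Hep3B-KD libraries. Of all genes tested, 59.9% passed in either direction, 36.1% higher and 23.8% lower, so a passing test was common in this comparison. At a fold of at least 2 as well, 1 of the 9 was lower, SRM, and 0 were higher, beside 2.94% and 5.89% of all genes tested. These 9 genes had a median log2 fold change of -0.25, beside 0.11 over all genes tested. The groups did not overlap in any of the 9 genes, as in 66.9% of all genes tested. With the libraries centred on the median log ratio, the counts over all genes went from 5133 higher and 3388 lower to 4064 higher and 4308 lower, and those over the 9 genes to 2 higher and 6 lower.

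**Figure D2:**
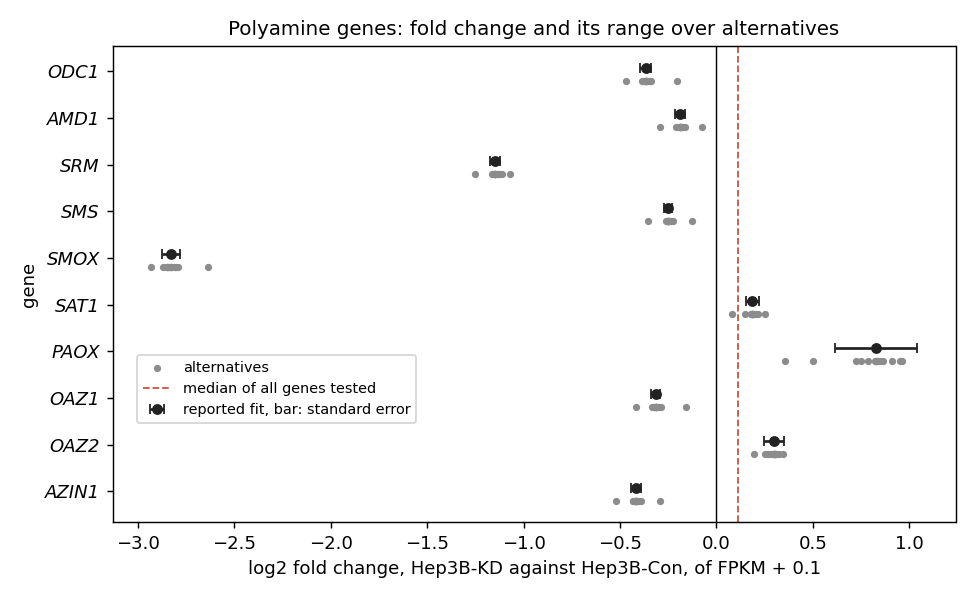
Log2 fold change of FPKM + 0.1, Hep3B-KD against Hep3B-Con, for each polyamine gene, with its standard error (black, 3 libraries per group) and the value under each alternative processing (grey dots). SMOX lies at -2.83 (-2.93 to -2.64 over the alternatives) and SRM at -1.15, ODC1, AMD1, SMS, OAZ1 and AZIN1 between -0.42 and -0.19, and SAT1, PAOX and OAZ2 on the positive side of 0. The dashed line is the median of all genes tested, 0.11.

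The order of the levels, each scaled to all annotated exons of its gene, changed in its middle. In Hep3B-Con it was ODC1, OAZ1, SMS, AZIN1, SRM, AMD1, SMOX, SAT1, OAZ2 and PAOX, from 109 down to 0.400 FPKM, and of neighbours only SRM and AMD1 overlapped in range. In Hep3B-KD, ODC1 and OAZ1 overlapped at the top, AMD1 and SAT1 stood above SRM, and SMOX, at 5.28 ± 0.263 FPKM, stood between OAZ2, at 12.8 ± 0.240 FPKM, and PAOX, at 0.789 ± 0.0990 FPKM (SD, n = 3 each). The catabolic genes together went from 61.87 to 62.92 FPKM per Hep3B-Con library to 33.13 to 33.34 FPKM per Hep3B-KD library. SMOX made up most of that sum in Hep3B-Con, and SAT1 in Hep3B-KD.

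Ratios within a library do not depend on how libraries are scaled to each other. The ratio of SMOX to PAOX was 87.2, 92.1 and 108 in Hep3B-Con and 5.80, 7.04 and 7.43 in Hep3B-KD, given as a description since SMOX chose the set. The 2 oxidases thus stood more than 80-fold apart in every Hep3B-Con library and less than 8-fold apart in every Hep3B-KD library, with PAOX the lower in all 6. The ratio of SMS to SRM, the successive synthases, was 2.01, 1.89 and 1.90 in Hep3B-Con and 3.70, 3.59 and 3.55 in Hep3B-KD (log2 difference 0.90, two-sided exact permutation p = 0.1). OAZ2 to OAZ1 went from 0.0975, 0.104 and 0.108 to 0.164, 0.157 and 0.152 (log2 difference 0.62, two-sided exact permutation p = 0.1). Neither pair of groups overlapped, and 0.1 is the smallest p that 3 against 3 libraries allow.

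ODC1 to AZIN1 was the ratio of a gene and its near relative, and here the groups overlapped. It was 1.77, 1.77 and 1.73 in Hep3B-Con and 1.76, 1.92 and 1.79 in Hep3B-KD (log2 difference 0.05, two-sided exact permutation p = 0.3). With 3 tested ratios and a floor of 0.1, no p could pass 0.05 with or without adjustment.

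**Figure D3:**
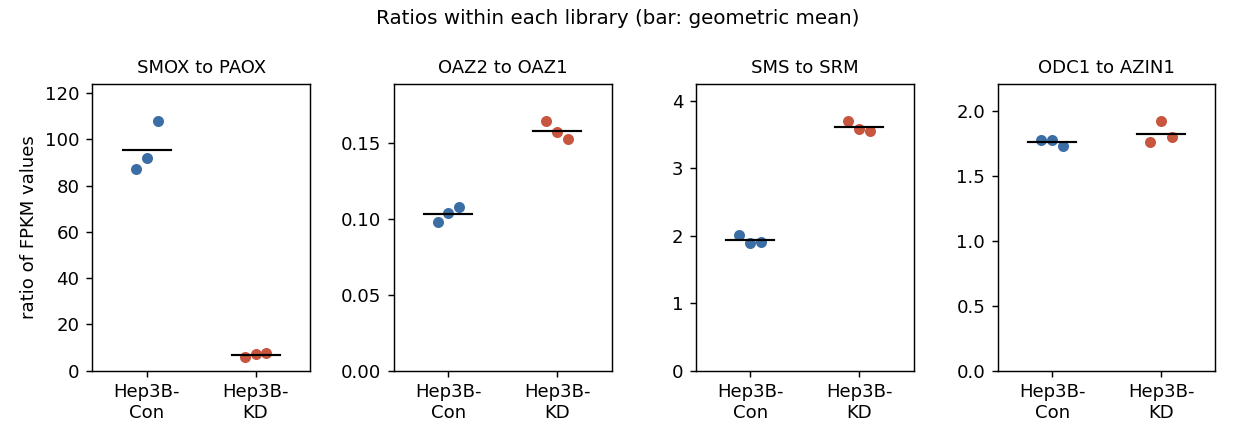
Ratio of FPKM values within each library for 4 pairs of polyamine genes in Hep3B-Con (blue) and Hep3B-KD (red), on linear axes from 0, with a bar at the geometric mean. SMOX to PAOX goes from 95.3 to 6.72, OAZ2 to OAZ1 from 0.103 to 0.158 and SMS to SRM from 1.93 to 3.61, while ODC1 to AZIN1 overlaps at 1.76 and 1.82.

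Other genes of the pathway were taken from a list of 34 that feed it, move polyamines, use spermidine or activate ODC1 transcription. SAT2, AOC1 and ATP13A4 matched no row used here, and 7 others, among them ARG1, AZIN2, OAZ3, SATL1 and MYCN, were below the filter on low values and were not tested. Of the other 24 genes, 5 rose and 10 fell at an adjusted p under 0.05. As shares these were 20.8% higher and 41.7% lower, beside 36.1% and 23.8% of all genes tested, with a median log2 fold change of -0.12 beside 0.11. The count of 5 higher was sensitive to processing, between 1 and 6 over the alternatives.

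Among the 24 tested genes, the largest changes in both directions were in transport. SLC3A2, a subunit of amino acid exchangers that has been tied to polyamine export, was at 71.6, 71.2 and 74.4 FPKM in Hep3B-Con and 29.37, 29.02 and 28.98 FPKM in Hep3B-KD, with a log2 fold change of -1.31 ± 0.0237 (SE, adjusted p = 1.78e-07). SLC22A3, an organic cation transporter, went the other way, from 2.01, 2.20 and 2.33 FPKM to 5.84, 4.93 and 5.29 FPKM, with a log2 fold change of 1.26 ± 0.0863 (SE, adjusted p = 3.10e-05). Of the 24 tested genes, only these passed at a fold of at least 2. The lysosomal exporter ATP13A2 (-0.14, adjusted p = 0.0494), its relative ATP13A3 (0.08, adjusted p = 0.0319) and the vesicular carrier SLC18B1 (0.12, adjusted p = 0.0425) passed narrowly, and each passed in only 7 of 16 alternatives. Centred on the median of all genes, ATP13A3 was at -0.03 (adjusted p = 0.349) and SLC18B1 at 0.02 (adjusted p = 0.707), and SLC12A8, which had not passed, was at -0.20 (adjusted p = 0.0112).

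Upstream of ODC1, 2 of the 3 tested genes on ornithine and agmatine fell and 0 rose, beside 23.8% and 36.1% of all genes tested. Of the 2 below the filter, ARG1 is the liver arginase, and AZIN2, though listed here, is a paralogue of the antizyme inhibitor AZIN1. ARG1 was at 0.203, 0.0293 and 0.306 FPKM in Hep3B-Con and 0.610, 0.539 and 0.675 FPKM in Hep3B-KD. AZIN2 did not exceed 0.0643 FPKM in any library. These levels were too low for the test, on 1 to 10 reads per Hep3B-Con library and 17 to 22 per Hep3B-KD library for ARG1. For AZIN2 the reads were 0 to 1 and 2 to 7, and no direction is read from either gene. OAT, which interconverts ornithine and glutamate semialdehyde, fell by 0.98 on the log2 scale (adjusted p = 0.000298) and AGMAT, agmatinase, by 0.39 (adjusted p = 9.46e-05), while the arginase ARG2 did not pass. Around S-adenosylmethionine, 3 of 9 genes fell (MTAP, AHCY and APIP) and 2 rose (MAT2B and ADI1), beside 23.8% and 36.1% of all genes tested. With median centring neither MAT2B (0.11, adjusted p = 0.175) nor ADI1 (0.08, adjusted p = 0.0829) passed, and APIP, at -0.17 (adjusted p = 0.045), passed in 7 of 16 alternatives. MTAP, which clears the methylthioadenosine that the aminopropyl transfers leave, fell by 0.58 (adjusted p = 0.000141), and AHCY, which clears S-adenosylhomocysteine, fell by 0.47 (adjusted p = 5.73e-06). MAT2A, the synthetase of S-adenosylmethionine in dividing cells, stood at a log2 fold change of 0.01 (adjusted p = 0.628), with values from -0.09 to 0.19 over the alternatives.

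Spermidine is also the source of hypusine, the modified lysine of the translation factor eIF5A. Of the 4 genes of that step, 2 fell and 0 rose, beside 23.8% and 36.1% of all genes tested. The 2 were the factor genes, EIF5A, lower by 0.47 (adjusted p = 0.000735), and EIF5A2, lower by 0.81 (adjusted p = 0.000243). The enzymes DHPS and DOHH did not pass. MYC, a known activator of ODC1 transcription, was at 96.2, 94.3 and 95.8 FPKM in Hep3B-Con and 51.4, 53.4 and 54.3 FPKM in Hep3B-KD. All 3 Hep3B-KD libraries were far below all 3 Hep3B-Con libraries, with a log2 fold change of -0.85 ± 0.0247 (SE, adjusted p = 1.05e-06), and its partner MAX did not pass.

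**Figure D4:**
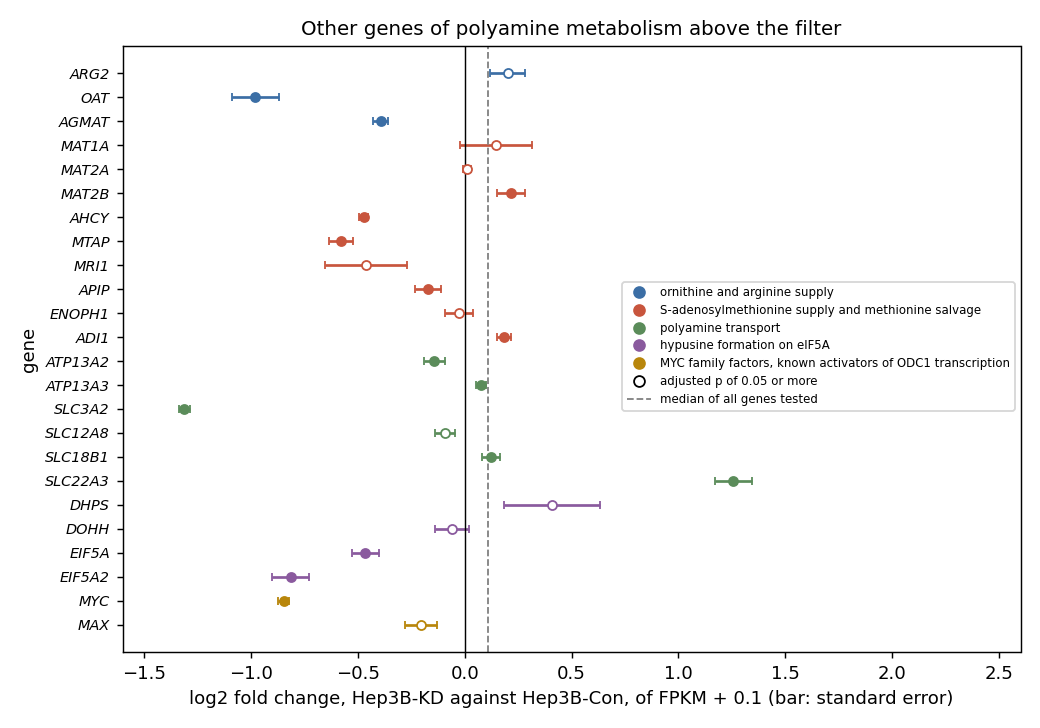
Log2 fold change of FPKM + 0.1, Hep3B-KD against Hep3B-Con, with its standard error (3 libraries per group) for the 24 further genes of polyamine metabolism above the filter, coloured by their list, with open symbols for genes that did not pass. SLC3A2 at -1.31 and SLC22A3 at 1.26 mark the ends of the range.

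Because MYC binds the E-box CACGTG, the promoters of the polyamine genes were searched for these letters, which read the same on both strands. RefSeq windows of 300 bases (GRCh38.p14, 250 before and 50 from the start site) were at hand for 7 of the 10 genes, all but SMOX, PAOX and AZIN1. A gene was counted if any of its windows held the motif, which is not the same unit as a share of windows. Of the 7 genes, 2 held the E-box, ODC1 and SRM, beside 7.26% of all 35116 windows. One lies at chr2:10448036-10448041, 29 bases before one of the 2 listed starts of ODC1, which has another 5 bases after that start, and the SRM motif lies at chr1:11060212-11060217, 199 bases before its start. Both stretches are shown on the minus strand, on which the genes lie, with the motif in capitals.
ODC1 promoter: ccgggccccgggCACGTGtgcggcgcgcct
SRM promoter: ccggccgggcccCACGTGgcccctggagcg
The log2 fold changes of the 2 genes with the E-box were -1.15 (SRM) and -0.37 (ODC1). Those of the genes without it were -0.32 (OAZ1), -0.25 (SMS), -0.19 (AMD1), 0.19 (SAT1) and 0.30 (OAZ2). The TEAD motif GGAATG, or CATTCC on the other strand, was in 0 of the 7 genes' windows and in 14.0% of all windows. A match in a window is not evidence of binding. With only 7 genes and no window for SMOX, a count of 0 is not evidence against binding. The part of MYC or of TEAD factors in these changes was not tested.

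The hairpin's seed was then set beside the fold changes of all genes. Of 11188 tested genes with a 3′ UTR of at least 50 bases, DAGLA left out, 1627 (14.5%) held the 7 bases GCCTTCA in the longest one, and 368 (3.29%) held the 8 bases GCCTTCAA that the second SMOX site holds. SMOX was among the 253 genes (2.26%) with 2 or more matches. Those 253 genes had a median log2 fold change of -0.04, the 1374 genes with 1 match one of -0.04, and the 9561 genes with 0 matches, among them the other 9 polyamine genes, one of 0.11.

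A level at least 2-fold lower in Hep3B-KD, whatever its p, was found in 11.9% of the genes with 2 or more matches, in 7.57% of those with 1 match and in 2.18% of those with none. SRM, which held 0 matches, was in the last of these. The fold change of SMOX was far below the median of every class. Genes that stood that low were 2 of 253 in its own class, SMOX included, 1 of 1374 with 1 match and 1 of 9561 with 0. Longer UTRs hold more matches and differ between kinds of genes, and the part of the hairpin's seed in the level of SMOX was not tested. The series holds 1 hairpin against DAGLA, so an effect of lower DAGLA and an effect of the hairpin on other transcripts cannot be told apart.

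Among the genes whose profile over the 6 libraries was most like that of SMOX were S100A11, ANGPTL8, CER1 and POLE4. Likeness was the root mean square difference between log2(FPKM + 0.1) profiles centred on their own means, a description with no test. It was 0.0683 for S100A11, a calcium-binding protein, whose mean went from 29.7 to 4.18 FPKM. S100A11 is also among the genes the study picked, and its log2 fold change of -2.805 was close to the -2.827 of SMOX. For ANGPTL8, a secreted regulator of lipoprotein lipase made by liver, the root mean square difference was 0.0901, with means of 46.6 and 6.91 FPKM. CER1, a secreted antagonist of BMP and Nodal signalling, had 0.108 and went from 85.2 to 13.8 FPKM, while POLE4, with 0.138, had a log2 fold change of -3.05.

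Pseudogenes named after AMD1 and SRM were at low levels. Found by symbol alone, AMD1P3, AMD1P4 and SRMP2 did not rise above 0.254, 0.0855 and 0.0658 FPKM in any library, beside at least 36.0 FPKM for AMD1 and 18.5 FPKM for SRM.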

How the data were processed

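Libraries from 3 Hep3B-Con and 3 Hep3B-KD samples, grouped by the sample titles, were analysed. The authors deposited FPKM values for 29908 Ensembl genes in 1 table with 0 other columns of values. The submitters' processing notes name TopHat2 2.0.12, Bowtie2 2.0.6 and GRCh37, and the counting and the annotation are not given in the sources used here. Multiplied by GENCODE release 29 (GRCh38) exon lengths and library totals, 100% of values came within 0.01 of a whole read, which gave the depths.

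Genes averaging 0.5 FPKM or more were tested on log2(FPKM + 0.1) with limma 3.58.1 (R 4.3.3, eBayes with trend, no replicate block) and Benjamini-Hochberg adjustment over all of them, and a gene passed at an adjusted p under 0.05. p-values measure the spread between the 3 libraries of a group. The fit was tested on simulated data. The text names the 10 genes, DAGLA, genes of the pathway and marker lists, and the 5 profiles most like SMOX, of which 1 is not reported here. The 10 genes and the lists were chosen with earlier results of these data known. Coordinates are 1-based on GRCh38. Libraries of a group differed by more than sampling noise (chi-square per gene 1.80 to 3.30), so none was counted as a duplicate. Alternatives covered the filter, pseudocount, scaling, test, replicate block and each library left out.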

Additional observations from a re-analysis of the deposited data

How the results depend on the processing

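ODC1, SRM, SMS, OAZ1, OAZ2, AZIN1 and DAGLA kept their direction and passed under all 16 alternatives. AMD1, SMOX, SAT1 and PAOX did not turn in direction under any alternative that held them. AMD1 was lost with quantile normalization, SAT1 with median centring, and PAOX with quantile normalization and without Hep3B-KD replicate 1, and PAOX was removed by a filter of 1 FPKM. The log2 fold change of SMOX ran from -2.93 with median centring to -2.64 with a pseudocount of 1. Of the 24 other pathway genes, 5 were higher in the reported fit, 3 without a filter, 3 without the eBayes trend, 3 with the replicate number as a block, 1 with median centring, and 2 to 4 with 1 library left out (2 without Hep3B-Con replicate 1, Hep3B-Con replicate 3 or Hep3B-KD replicate 2, and 3 without Hep3B-KD replicate 3). Median centring moved the median over all genes from 0.11 to 0.01 (log2).

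Libraries with the same replicate number did not deviate together (correlations -0.0656 to -0.0011), so the numbers were not taken as pairs. With the block, 3 of the 9 polyamine genes other than SMOX were higher and 6 lower, as without it, and 4766 and 3153 of all genes. Depth limits PAOX most, on 14 to 32 reads per library, and 3 libraries per group limit every test.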
